A study of Mus musculus with 2 samples.

Results

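The annexin family was followed through 2 tumor-bearing sections of mouse cerebellum, and 9 annexin genes, *Anxa1* to *Anxa8* and *Anxa11*, were taken from the 19465 genes measured in both sections. They were chosen by name, with earlier results of these sections known. The 2 further annexins measured, *Anxa9* and *Anxa10*, had low levels and are given below. Each section was a 5-µm slice of formalin-fixed tissue profiled with the Visium CytAssist probe assay, in which pairs of gene-specific probes are counted as unique molecular identifiers (UMI) at barcoded spots. A spot is a small area that can hold several cells of different types. The 2 sections were the study's biological replicates. Section 1 carried the title prefix HP-F1 and section 2 the prefix HP-B6, and both had the genotype label HP, the cell line label B6-HP and no treatment. HP stands for a human *HER2* transgene with the V777L mutation, kept silent by a stop cassette until Cre was given, together with mutant *PIK3CA* H1047R. Tumors had been started in the mammary gland by Cre, grown as luciferase-labeled organoids after selection of a clone, and injected as cells into the cerebellum of syngeneic, immunocompetent mice, whose age is given as 5 months. Neither section lacked a tumor, so the neural tissue of the same section was the comparison. The series was made to describe the surroundings and the cell types of these metastases.

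Annexins bind phospholipids of cell membranes when calcium rises, through a conserved core, and differ mainly in the tail before that core. They are known for membrane repair, vesicle traffic, exocytosis and the control of clotting and inflammation, and several are abundant in epithelial, stromal and myeloid cells and scarce in most neurons. *Anxa1* is a ligand of formyl peptide receptors, *Anxa2* pairs with *S100a10* at the cell surface and binds plasminogen and its activator, and *Anxa5* binds exposed phosphatidylserine.

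The 9 genes lie on 7 chromosomes of the mouse genome build GRCm38 (mm10), by RefSeq's annotation. *Anxa1* (ENSMUSG00000024659) lies at chr19:20373434-20390671, *Anxa2* (ENSMUSG00000032231) at chr9:69453683-69491792 and *Anxa3* (ENSMUSG00000029484) at chr5:96793385-96845968. *Anxa4* (ENSMUSG00000029994) lies at chr6:86736840-86793634, *Anxa5* (ENSMUSG00000027712) at chr3:36448923-36475887 and *Anxa6* (ENSMUSG00000018340) at chr11:54978953-55033471. *Anxa7* (ENSMUSG00000021814), *Anxa11* (ENSMUSG00000021866) and *Anxa8* (ENSMUSG00000021950) share chromosome 14, at chr14:20455261-20480133, chr14:25842127-25886804 and chr14:34085979-34100571.

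Promoters are shown for *Anxa1* and *Anxa2*, which had the largest fold changes between tumor and neural tissue, and for *Anxa7*, which had the smallest. Each runs from 250 bases before the annotated start to 50 bases after it and comes from RefSeq's GRCm38 annotation. Capitals mark matches, on either strand, to the TATA box, which was searched as TATAAA, to the CCAAT box, to the GC box, which was searched as GGGCGG, to the AP-1 motif, which is TGA and TCA around any base, or to the GAS motif, which is TTC and GAA around any 3 bases.
Anxa1, chr19:20390622-20390921, minus strand: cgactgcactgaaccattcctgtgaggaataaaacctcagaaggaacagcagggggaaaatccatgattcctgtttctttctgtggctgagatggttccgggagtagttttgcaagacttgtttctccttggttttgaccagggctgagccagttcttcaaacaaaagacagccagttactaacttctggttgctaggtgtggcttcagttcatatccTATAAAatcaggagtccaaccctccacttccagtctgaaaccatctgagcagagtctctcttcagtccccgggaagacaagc
Anxa2, chr9:69453433-69453732, plus strand: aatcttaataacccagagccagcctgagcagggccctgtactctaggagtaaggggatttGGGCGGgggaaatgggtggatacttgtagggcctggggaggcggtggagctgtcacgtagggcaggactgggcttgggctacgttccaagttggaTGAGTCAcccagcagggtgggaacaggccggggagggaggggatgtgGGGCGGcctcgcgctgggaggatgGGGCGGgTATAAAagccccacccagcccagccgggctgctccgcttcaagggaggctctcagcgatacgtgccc
Anxa7, chr14:20479892-20480191, minus strand: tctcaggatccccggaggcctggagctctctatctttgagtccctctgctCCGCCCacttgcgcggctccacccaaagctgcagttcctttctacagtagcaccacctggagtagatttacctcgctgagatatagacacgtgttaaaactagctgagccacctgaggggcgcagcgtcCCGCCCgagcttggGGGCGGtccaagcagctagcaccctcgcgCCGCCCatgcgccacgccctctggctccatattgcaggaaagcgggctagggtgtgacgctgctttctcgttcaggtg
A TATA box began at position -32 from the annotated start of *Anxa1* and at -17 of *Anxa2*. *Anxa2* also held an AP-1 motif at -95 and GC boxes at -190, -48 and -24. The promoters of *Anxa5* and *Anxa8*, not shown, held none of the motifs searched. The log2 fold changes of these genes between tumor interior and neural tissue were 1.91 and 4.24. A relation between motifs and fold changes was not tested. The *Anxa7* promoter shown held 4 GC boxes, and a second *Anxa7* entry, not shown, held 1, with no TATA box in either. The share of G and C was 47.3% for *Anxa1*, 63.7% for *Anxa2*, 60.7% for the *Anxa7* promoter shown and 44.7% for the other. The median over all promoters was 52.7%. Promoter entries existed for 7 of the 9 genes, not for *Anxa3* and *Anxa6*. Of 32851 promoters of this length, 13.6% held the TATA box, 37.4% the CCAAT box, 35.7% the GC box, 7.81% the AP-1 motif and 8.3% the GAS motif. A match describes the letters alone, and no match in this window says nothing of a factor.

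Each section was divided by the share of UMIs from 48 neuronal and glial genes, none of them an annexin. Connected spots with a low share formed the tumor area, and the rest was neural. The border between them was flanked by 2 edge bands, each 3 array steps wide. This gave 4 regions, with 618 and 519 spots of tumor interior (section 1 and section 2), 164 and 285 on the tumor side of the edge, 177 and 241 on its neural side, and 2356 and 2825 of neural tissue. Summed libraries held 3316855 to 33600213 UMIs, and the median UMI count of a spot fell from 57126.5 and 42613 in the tumor interior to 7534.5 and 9834 in neural tissue. Markers of cerebellar granule neurons were present, whose 5 genes summed to 629 and 1387 CPM (UMI counts per 1000000 of the library) in neural tissue against 56.5 and 48.7 in the tumor interior, and 4 of these genes had helped to set the regions. The tumors of the 2 sections differed in makeup. The 12 epithelial markers, none at 0 in the tumor interior, summed to 53.5 CPM there in section 1, near the 35.5 of its neural tissue. In section 2 they summed to 13419.7 in the tumor interior and 415.9 in neural tissue. The 8 fibroblast markers summed to 56208 in section 1 and 430.1 in section 2. The tumor interior of section 1 is therefore called by its region only. Fewer cells of a type and less RNA per cell cannot be told apart in such sums.

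All 9 annexins were higher in the tumor interior than in neural tissue. Their log2 fold changes ran from 1.09 for *Anxa7* to 5.53 for *Anxa1*, with a median of 3.05 against -0.10 over the 19161 genes tested. Each of the 9 passed the test (edgeR's quasi-likelihood test, Benjamini-Hochberg adjusted p below 0.05), where 18.1% of all genes were called higher and 17.9% lower. In 9 of 9 members the lower of the 2 tumor interior values exceeded the higher of the 2 neural values, as it did for 28.3% of the genes with any UMI. The members had been picked with earlier results of these sections known, so the count is a description. Levels below are CPM with trimmed-mean (TMM) scaling, 1 value per section, and are compared between regions but not between genes, since probes differ in yield.

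**Figure D1:**
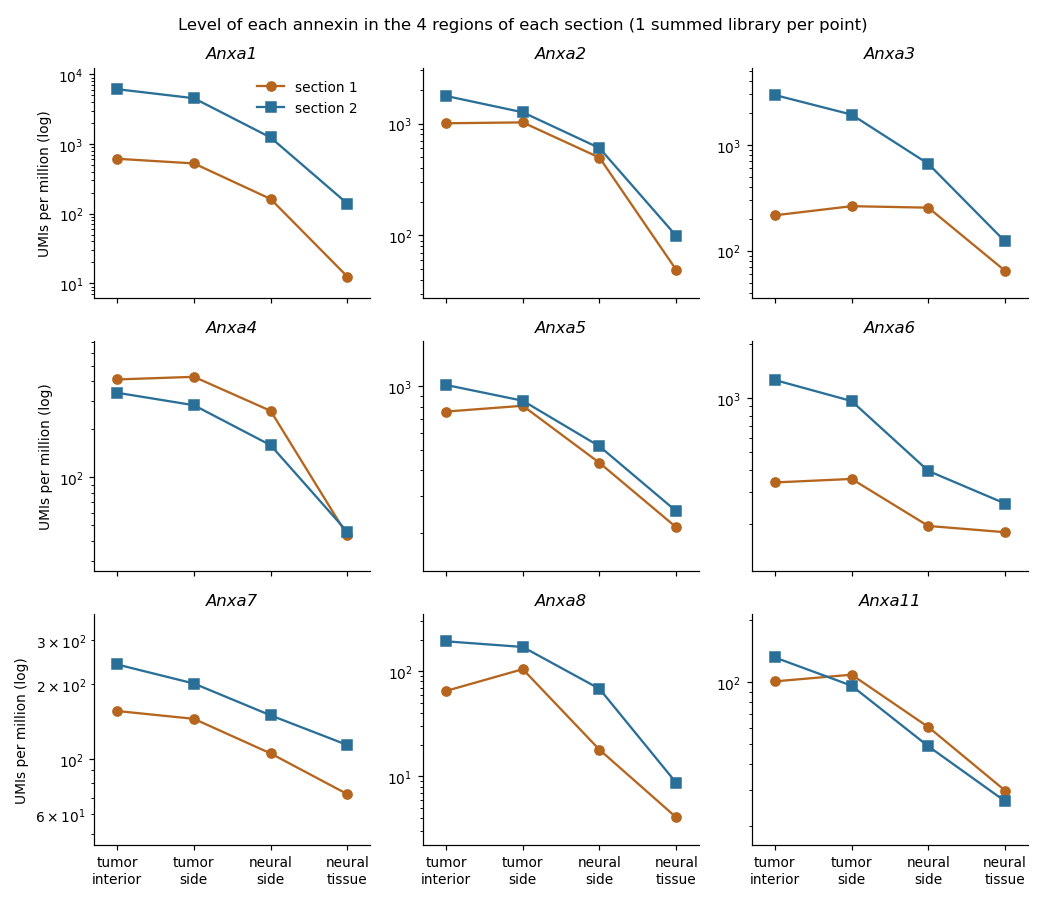
Levels of the 9 annexins in CPM (log axis) in tumor interior, both sides of the edge and neural tissue, with 1 summed library per point and 1 line per section. All lines end lowest in neural tissue, and *Anxa1* and *Anxa3* differ most between sections, with 614 against 6120.4 and 216 against 2946 CPM in the tumor interior.

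*Anxa1*, the ligand of formyl peptide receptors, had the largest fold change. Its level was 614 and 6120.4 in the tumor interior, 526 and 4542 on the tumor side of the edge, 162.5 and 1240.3 on the neural side and 12.5 and 139.6 in neural tissue, for section 1 and section 2 in that order. Both sections fell at each step outward, section 2 stood above section 1 in every region, the 2 tumor interior values lay above the 2 neural values, and the regions closest to each other were the interior and the tumor side. The fitted log2 fold change between tumor interior and neural tissue was 5.53 (standard error 0.29, adjusted p = 4.87e-04), with 5.56 in section 1 and 5.45 in section 2. The sections thus differed far more in level than in the step from neural to tumor tissue. Epithelial markers summed to 35.5 CPM in the neural tissue of section 1 and 415.9 in that of section 2. Their part in the neural *Anxa1* values was not tested.

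*Anxa2*, the partner of *S100a10*, had levels of 1006 and 1763 in the tumor interior, 1024 and 1260.4 on the tumor side, 496 and 604 on the neural side and 49.3 and 99.2 in neural tissue. The tumor values of both sections lay above all neural values. The log2 fold change between tumor interior and neural tissue was 4.24 (standard error 0.30, adjusted p = 6.31e-04), at 4.34 and 4.15 in the sections.

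*Anxa8*, which is known from basal and squamous epithelia, had 65.0 and 192.5 in the tumor interior, 104.6 and 170.2 on the tumor side, 17.9 and 68.1 on the neural side and 4.08 and 8.69 in neural tissue. In section 1 the tumor side was above the interior, and in section 2 it was below. The log2 fold change between interior and neural tissue was 4.24 (standard error 0.35, adjusted p = 9.28e-04).

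*Anxa3*, which microglia and neutrophils are known to express, was the member whose fold change between interior and neural tissue differed most between sections. Section 1 had 216 in the tumor interior, 263 on the tumor side, 255 on the neural side and 64.6 in neural tissue, so its levels in the first 3 regions lay close together. Section 2 fell at each step, from 2946 to 1924, 660.1 and 122.2. The log2 fold change between interior and neural tissue was 1.73 in section 1 and 4.59 in section 2, and the fit gave 3.22 with the widest standard error of the family, 0.79 (adjusted p = 0.026).

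*Anxa4*, an annexin of secretory epithelia, was the only member lower in section 2 than in section 1 in the tumor interior. Its levels were 410.5 and 339 there, 426 and 283 on the tumor side, 261 and 159 on the neural side and 43.3 and 45.5 in neural tissue. Both interior values lay above those of the neural side and of neural tissue. The log2 fold change between interior and neural tissue was 3.05 (standard error 0.26, adjusted p = 9.74e-04).

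The other 4 members had smaller fold changes. *Anxa11*, known to tie RNA granules to lysosomes, had 101.1 and 132 in the interior and 29.8 and 26.5 in neural tissue (log2 fold change 2.06, standard error 0.22, adjusted p = 1.86e-03). *Anxa5* had 759 and 1016 in the interior and 214 and 255 in neural tissue (1.91, standard error 0.19, adjusted p = 1.59e-03). For both genes the 2 sections were close to each other in every region. *Anxa6*, whose core is duplicated, had 339 and 1261 in the interior and 179 and 259 in neural tissue (1.60, standard error 0.36, adjusted p = 0.019), and its log2 fold change was 0.92 in section 1 and 2.28 in section 2. *Anxa7*, or synexin, had 155.6 and 239 in the interior and 72.3 and 113.7 in neural tissue (1.09, standard error 0.16, adjusted p = 4.49e-03).

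When the section was left out of the model, 5 of the 9 annexins were called between tumor interior and neural tissue. Of the 19161 genes tested, 2015 were called higher and 2438 lower in that fit. *Anxa1* (adjusted p = 0.099), *Anxa3* (0.095), *Anxa6* (0.13) and *Anxa7* (0.083) then missed the threshold, with all 9 still higher. The common dispersion was 0.087 with the section as a block and 0.18 without it.

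**Figure D2:**
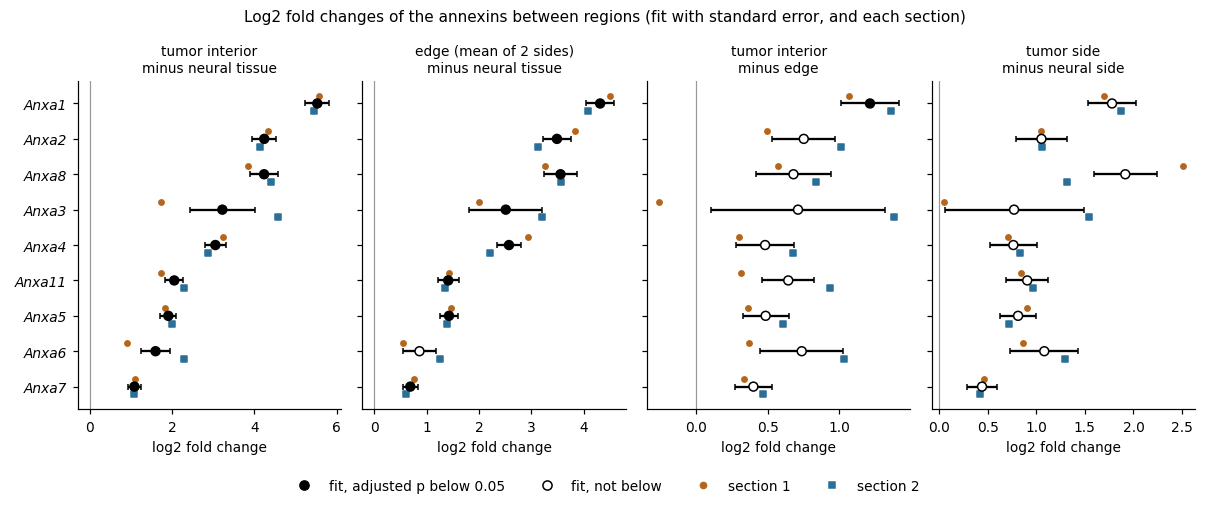
Log2 fold changes of the 9 annexins in the 4 comparisons between regions. Large points are the edgeR fit with its standard error, filled where the adjusted p was below 0.05, and small points are section 1 and section 2; the fit is filled for 9 members between tumor interior and neural tissue, for 8 between edge and neural tissue, for *Anxa1* alone between tumor interior and edge and for none between the sides of the edge.

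The edge, taken as the mean of its 2 sides, also had higher annexin levels than neural tissue. Here 8 of 9 annexins were called higher, where 12% of all genes were called higher and 14.5% lower. The median log2 fold change was 2.51 against -0.10 over all genes. *Anxa1* (4.31, standard error 0.26, adjusted p = 1.77e-03), *Anxa8* (3.56) and *Anxa2* (3.49) led again, and *Anxa7* had the smallest called value (0.69, standard error 0.14, adjusted p = 0.018). *Anxa6* was not called, at 0.86 (standard error 0.31, adjusted p = 0.099), with 0.55 in section 1 and 1.25 in section 2. *Anxa3* passed narrowly (2.51, standard error 0.69, adjusted p = 0.049) and missed the threshold at 0.052 when neural spots near left-out spots of section 2 were removed. Without the section as a block, 5 of 9 were called, where 1320 of the 19161 genes were called higher and 1992 lower.

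The tumor interior differed less from the edge. *Anxa1* alone was called higher in the interior, by 1.22 on the log2 scale (standard error 0.20, adjusted p = 0.036), at 1.07 in section 1 and 1.37 in section 2. Of all genes, 0.303% were called higher and 3.47% lower in this comparison. The call of *Anxa1* did not last under 7 of the alternatives tried, among them the fit without the section as a block, in which none of the 9 annexins was called. The other 8 members had fitted values between 0.40 (*Anxa7*) and 0.75 (*Anxa2*). Of these, 6 had an unadjusted p below 0.05, as had 3965 of the 19161 genes tested. *Anxa3* had -0.26 in section 1 and 1.39 in section 2, opposite in direction.

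Between the sides of the edge, none of the 9 annexins and none of the 19161 genes was called by edgeR (0% higher, 0% lower). An unadjusted p below 0.05 was found for 8 of the 9 annexins and 4034 of the 19161 genes. DESeq2 called 6 of the 9, all higher, and 2002 of the 14125 genes it tested, 982 higher and 1020 lower. With TMM scaling every annexin had a higher value on the tumor side in both sections, and in 5 of 9 the lower tumor side value exceeded the higher neural side value, as in 22.4% of genes. Without TMM, *Anxa3* in section 1 turned, with 245 CPM on the tumor side and 291 on the neural side. There 4 of 9 members did not overlap between the sides, and the share over all genes was not computed without TMM. The shares that follow are again with TMM. No member of the 9 had its lower interior value above its higher tumor side value (8.11% of genes did), and in 7 of 9 the lower neural side value exceeded the higher neural tissue value (23.7% of genes). The largest fitted differences between the sides were those of *Anxa8* (1.92, standard error 0.32, adjusted p = 0.074) and *Anxa1* (1.78, standard error 0.25, adjusted p = 0.058).

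The order of the 4 regions differed between sections. In section 2 all 9 annexins fell at every step from tumor interior to tumor side, neural side and neural tissue. In section 1 the outer 3 regions kept that order for 9 of 9 with TMM scaling and for all but *Anxa3* without it, but 7 of 9 were higher on the tumor side than in the interior, the exceptions being *Anxa1* and *Anxa7*. For those 7 the difference was small except for *Anxa8*, at 104.6 against 65.0, and *Anxa3*, at 263 against 216.

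Levels at each array step from the border gave a finer view. For this, CPM were taken without TMM scaling over all spots at a given step, with at least 31 spots in each bin. Negative steps lie within the tumor. Bins ran from step -15 in section 1 and step -12 in section 2 to step 20. Spots beyond these steps are not part of the profile. *Anxa1* in section 1 was 499 to 675 at steps -15 to -4, 387 at step -1, 259.8 at step 1, 114 at step 3 and 14.1 at step 10. In section 2 it was 4930 to 5653 at steps -12 to -4, 3250.3 at step -1, 1818 at step 1, 585 at step 3 and 187 at step 10. The fall thus began inside the tumor band in both sections. In section 2 it did not go on steadily, with 465 at step 13 and 81.3 at step 18. Without neural spots within 3 steps of the left-out spots of section 2, the *Anxa1* log2 fold change between tumor interior and neural tissue was 5.85.

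**Figure D3:**
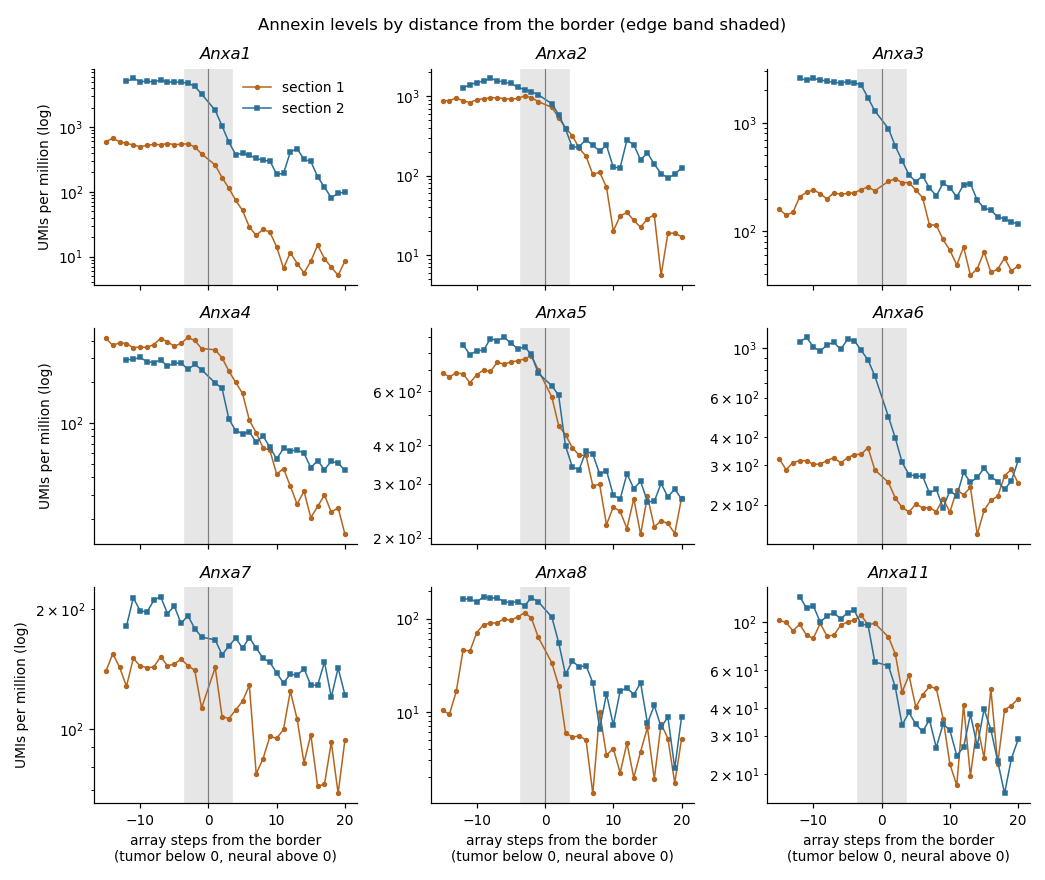
Annexin levels (CPM, log axis) against distance from the border in array steps, negative in the tumor and positive in neural tissue, with the edge bands shaded and 1 line per section. *Anxa1* in section 1 falls from 387 at step -1 to 14.1 at step 10, *Anxa8* in section 1 is low at steps -15 to -13, and *Anxa7* stays above 0.5 of its value at step -1 throughout.

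*Anxa3* and *Anxa7* in section 1 did not fall at the border. *Anxa7* was 113 at step -1, 143 at step 1 and 107 at step 2. *Anxa3* was 236 at step -1, 288 at step 1 and 304 at step 2, its highest bin. *Anxa3* first fell below 0.5 of its value at step -1 at step 7. In section 2 that point came at step 2. The 10 macrophage markers, none at 0 in any region, summed to 7006, 6372, 7959 and 1719 CPM from interior to neural tissue in section 1 and to 1303, 3217, 6462 and 1796 in section 2, and their part in the *Anxa3* profile was not tested. *Anxa2* reached it at step 3 in both sections, *Anxa4* at step 5 in section 1 and step 3 in section 2, and *Anxa5* at steps 7 and 4. *Anxa7* did not reach it within 20 steps in either section, nor did *Anxa6* in section 1.

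*Anxa8* in section 1 varied within the tumor. At steps -15 to -13, over 97 spots, its level was 9.39 to 16.5. At steps -12 to -4, over 372 of the 618 interior spots, it was 44.7 to 104, and at steps -3 to -1 it was 63.2 to 115. Interior spots deeper than step -15 are in no bin, so 97 is not the full number of deep spots. In the tumor of section 2 the bins ran from 137 to 172. An area of low *Anxa8* on the side of the section 1 tumor away from neural tissue can be seen in the spot maps.

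**Figure D4:**
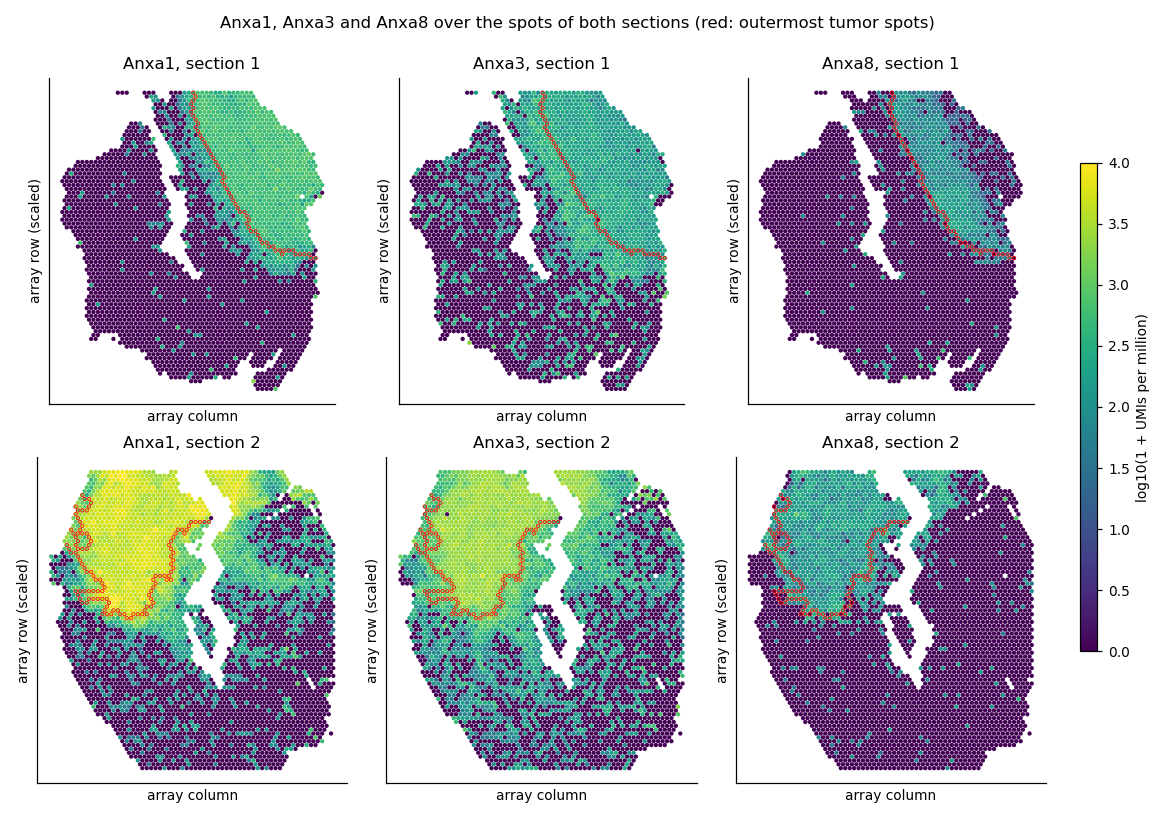
*Anxa1*, *Anxa3* and *Anxa8* in each spot of section 1 (top) and section 2 (bottom), as log10(1 + CPM), placed by array column and row, with the outermost tumor spots ringed in red. Median spot levels in the tumor interior were 559 and 4785 CPM for *Anxa1*, 187 and 2459 for *Anxa3*, and 34.3 and 144 for *Anxa8*.

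The 2 tumors differed in annexin level, and with 1 section each this difference has no replicate check. In the tumor interior 8 of 9 members were higher in section 2, with ratios of section 2 to section 1 from 0.825 (*Anxa4*) to 13.7 (*Anxa3*). *Anxa1* was 9.97-fold higher, *Anxa6* 3.72-fold and *Anxa8* 2.96-fold. *Anxa2*, *Anxa7*, *Anxa5* and *Anxa11* lay between 1.31-fold and 1.75-fold. The neural tissue differed too: *Anxa1* was 11.2-fold higher in section 2 there, while *Anxa3* was 1.89-fold and the other members 0.888-fold to 2.13-fold. The epithelial and fibroblast lists move with the section as given above, and their part in these ratios was not tested.

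Among single spots of the tumor interior the spread differed between annexins. The 10th and 90th percentiles of *Anxa1* were 404 and 747 CPM in section 1 and 3278 and 6689 in section 2. Those of *Anxa2* were 671 and 1164 in section 1 and 1066 and 1856 in section 2. Those of *Anxa5* were 475 and 896 in section 1 and 594 and 1070 in section 2. *Anxa8* had a 10th percentile of 0 and a 90th of 134.3 in section 1. In that section these percentiles were 97.1 and 296 for *Anxa3*, 72.5 and 218 for *Anxa7*, and 32.9 and 147 for *Anxa11*. Mean UMIs per interior spot of section 1 were 3.27 for *Anxa8*, 5.08 for *Anxa11*, 7.83 for *Anxa7* and 10.8 for *Anxa3*. They were 30.9 for *Anxa1* and 50.6 for *Anxa2*, and the part of low counts in the spread was not tested. In neural tissue the median spot held no UMI of *Anxa1*, *Anxa2*, *Anxa4*, *Anxa8* or *Anxa11* in either section, where *Anxa5* had medians of 190.3 and 228 and *Anxa6* of 166 and 217. Mean UMIs per spot of *Anxa1* were 30.9 and 217.4 in the tumor interior and 0.12 and 1.67 in neural tissue, without correction for the lower depth of neural spots.

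Across spots of the tumor area (782 in section 1, 804 in section 2), annexin levels were set against marker lists on the log2(1 + UMIs per 10000) scale. Spots of a section share a library and neighboring cells, so the Pearson r values are descriptions. In section 2, 9 of 9 members had r above 0 with the epithelial list, led by *Anxa1* (0.87), *Anxa6* (0.71), *Anxa3* (0.71) and *Anxa2* (0.57), with *Anxa4* at 0.01. The macrophage list had r below 0 with 9 of 9, at -0.57 for *Anxa1*, -0.56 for *Anxa3* and -0.53 for *Anxa6*. In the tumor interior alone these 3 values were -0.26, -0.22 and -0.25, while r of *Anxa1* with the epithelial list was 0.80. The macrophage list was not alone in this. Over the tumor area of section 2 the microglia, astrocyte, oligodendrocyte, granule neuron and hindbrain neuron lists had r below 0 with 9 of 9. The fibroblast, endothelial, mural, T cell and B and plasma cell lists had it with 8 of 9. *Anxa3* had r of -0.61 with the granule neuron list and -0.59 with the oligodendrocyte list. In section 1, where the epithelial list was near its level in neural tissue, r with it lay between -0.15 and 0.06. *Anxa1* had r of 0.38 with the fibroblast list there, or 0.15 in the interior alone, and -0.04 with the macrophage list. *Anxa8* in section 1 had r of -0.50 with the B and plasma cell list, 0.41 with the oligodendrocyte list and 0.35 with the astrocyte list. UMIs per spot moved with the annexins as well, with r from 0.20 to 0.40 in section 1 and from -0.04 to 0.46 in section 2.

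**Figure D5:**
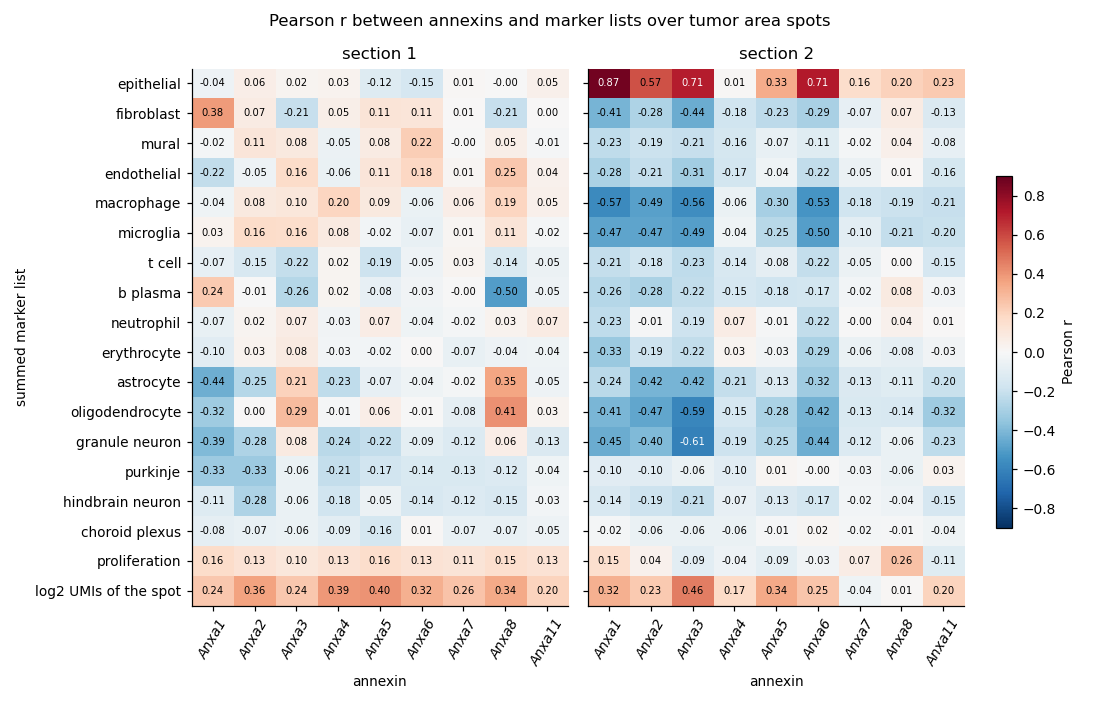
Pearson r between each annexin and 17 marker lists, and the UMI count of the spot, over tumor area spots of section 1 (left) and section 2 (right). In section 2 *Anxa1*, *Anxa2*, *Anxa3* and *Anxa6* go with the epithelial list (r 0.57 to 0.87) and against the macrophage list. All 9 members also have r below 0 with the microglia, astrocyte, oligodendrocyte, granule neuron and hindbrain neuron lists there. In section 1 no member has r above 0.06 with the epithelial list.

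In neural tissue the lists stood in another relation. The macrophage list had r above 0 with 8 of 9 members in each section. Its r was 0.43 for *Anxa2* and 0.38 for *Anxa3* in section 1 and 0.37 and 0.43 in section 2. Such counts were not particular to that list. The microglia and fibroblast lists had r above 0 with 9 and 8 members, endothelial with 8 and 8, proliferation with 8 and 9. UMIs of the spot had 8 and 9, while the granule neuron list had 7 and 2 and the astrocyte list 5 and 1. *Anxa1* in section 2 went with the epithelial list in neural tissue too (r = 0.70), and in section 1 it did not (r = 0.02). With the macrophage list the member below 0 was *Anxa8* in section 1 (-0.004) and *Anxa6* in section 2 (-0.10). *Anxa6* had r of 0.27 and 0.30 with the list of hindbrain projection neurons, and *Anxa5* 0.11 and 0.18.

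Pairs of members were compared in the same way. Of the 36 pairs of annexins, 34 had r above 0 over the tumor area of section 1 (median 0.146, highest 0.415) and 33 in section 2 (median 0.141, highest 0.707). The highest pair was *Anxa2* with *Anxa4* in section 1 and *Anxa1* with *Anxa3* in section 2. Over neural tissue 33 and 36 pairs had r above 0. The share over pairs of all genes was not computed, so these counts are descriptions.

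The genes most like each member over tumor area spots were found among 9226 genes, by the mean of the r values of both sections. *Anxa1* was nearest to *S100a6*, a calcium-binding protein of the S100 family (0.46 and 0.75), followed by the tropomyosins *Tpm1* and *Tpm2*. *Anxa2* was nearest to *Ahnak*, a large scaffold protein of the cell cortex (0.42 and 0.54), then *Emp1* and *Anxa1*. *Anxa3* was nearest to *Thbs1*, thrombospondin (0.26 and 0.78), the connexin gene *Gja1* and *Pkp1*. *Anxa5* and *Anxa6* were nearest to the actin cross-linker *Flna* (0.30 and 0.40, 0.31 and 0.48). *Anxa5* came next with *Anxa3* and *Tpm2*. *Anxa6* came next with *Tpm1* (0.15 and 0.61) and *Gja1* (0.04 and 0.71), both mainly in section 2. *Anxa8* was nearest to the water channel *Aqp5* (0.56 and 0.22), *Fbln2* and *Crabp2*, each mainly in section 1. *Anxa4* went with *Anxa2* (0.41 and 0.23), *Capg* and *Rnh1*. *Anxa7*, with *Ahnak*, *Afap1* and *Dynap*, and *Anxa11*, with *Anxa3*, *Atxn7l3* and *Nadk*, had no gene with a mean r above 0.22.

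Genes that work with annexins were followed in a list of 18. Between tumor interior and neural tissue 10 of 18 were called higher and none lower (18.1% and 17.9% of all genes), with a median log2 fold change of 1.28. Between edge and neural tissue 8 of 18 were called higher and none lower (12% and 14.5% of all genes). Of the S100 proteins that bind annexins, *S100a6* rose by 4.05 (standard error 0.27, adjusted p = 5.65e-04), with 2958 and 4715 in the interior and 148.7 and 341 in neural tissue. *S100a11* rose by 3.75 (standard error 0.27, adjusted p = 6.81e-04) and *S100a10* by 2.79 (standard error 0.30, adjusted p = 1.88e-03). For *S100a10* the interior values of 462 and 423 were close between sections. *S100a4* had 1539 in the interior of section 1 and 23.6 in that of section 2, and its fitted difference of 3.58 was not called (standard error 1.47, adjusted p = 0.11). *S100a1* was at -0.30 (adjusted p = 0.52).

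The membrane repair genes were split. *Myof*, which encodes myoferlin, rose by 4.21 (standard error 0.20, adjusted p = 4.87e-04) and *Ahnak* by 3.81 (standard error 0.21, adjusted p = 4.87e-04), and both were also called higher in the interior than at the edge (adjusted p = 0.048 and 0.024). *Dysf*, which encodes dysferlin, was at 0.02 (adjusted p = 0.97) and *Trim72* at -0.52 (adjusted p = 0.23). *Pdcd6* was called at 0.82 (adjusted p = 0.014), and *Sri* was not (0.53, adjusted p = 0.074).

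Among plasminogen system genes, the activator *Plau* had 111.4 and 162.3 in the interior, 214.7 and 178.2 on the tumor side, 127.2 and 100.6 on the neural side and 9.86 and 13.1 in neural tissue. The tumor side was above the interior in both sections. It was called in the interior (3.57, standard error 0.30, adjusted p = 1.01e-03) and at the edge (3.71, standard error 0.29, adjusted p = 1.93e-03) against neural tissue. The activator *Plat* was called at 1.27 and 1.58 (adjusted p = 4.93e-03 and 3.28e-03) and the receptor gene *Plgrkt* at 1.30 and 0.99 (adjusted p = 0.011 and 0.025), while *Plg* was not called. Of the formyl peptide receptors, *Fpr2* was called in the interior against neural tissue (1.93, standard error 0.56, adjusted p = 0.044), with 16.1 in the interior of section 1 and 2.06 in that of section 2. Its neural tissue values were 2.30 and 1.25. The log2 fold change of *Fpr2* was 2.57 in section 1 and 0.55 in section 2, where the interior held 38 UMIs. *Fpr1* and *Fpr3* were not called.

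Of the remaining annexins, *Anxa9* and *Anxa10* were measured at low levels. *Anxa9* had 7.82 and 8.79 in the interior and 2.89 and 2.49 in neural tissue and was called (1.63, standard error 0.30, adjusted p = 9.98e-03). *Anxa10* had 6 to 47 UMIs in a library and was not called (-0.63, standard error 0.43, adjusted p = 0.29).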

How the data were processed

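The 2 sections were sequenced as Visium CytAssist libraries and counted with Space Ranger 2.1.1 against mm10, per the submitters' processing notes. The authors deposited UMI counts, not normalized, of 19465 genes at spots under tissue, with spot positions. Spots with under 500 UMIs or 10 genes were left out (91 and 18), as were 129 spots of section 2 that formed groups of fewer than 100 below the threshold. That threshold was set per section by Otsu's method on the log10 neural share smoothed over a spot and its neighbors (0.695% and 0.679%). UMIs were summed per section and region into 8 libraries and tested with edgeR 4.0.16 in R 4.3.3 (filterByExpr, TMM, robust glmQLFit and glmQLFTest, section as a block, 3 residual degrees of freedom), with Benjamini-Hochberg adjustment over 19161 genes. Standard errors are the log2 fold change over the square root of F. The section was the block because regions of a section come from 1 animal, and differences between sections correlated over 14094 genes between every pair of regions (r = 0.266 to 0.889). The lowest r was that of tumor interior and neural tissue, and the highest that of tumor interior and tumor side. The block thus fits the comparison of tumor interior and neural tissue least closely. DESeq2 1.42.0 was the other tool. The fit was also run on simulated counts, with a lower dispersion than the 0.087 fitted here and a section effect equal in all regions. That setting is easier than these data, so it cannot tell how the fit behaves in them. Named genes were the 9 members, the other annexins, 18 partners and the 3 genes most like each member. Members and lists were chosen with earlier results of these data known. Clusters of the study were not used here. The sections share 3096 barcodes because the arrays have the same layout. Probe counts without a per-length correction do not compare genes.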

Additional observations from a re-analysis of the deposited data

Results flagged for a closer look

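3 groups of spots of section 2 fell below the threshold on the neural share but were too small to be counted as tumor area, and their annexins were not part of any comparison. A group of 77 spots had a summed annexin level of 11382.16 CPM, against 11580 in the tumor interior and 1149 in the neural tissue of that section, with *Anxa1* at 5328 and the epithelial list at 13018. A group of 6 spots had 7222.08, with *Anxa1* at 2644 from 272 UMIs. A group of 46 spots had 1018.6, near the level of neural tissue, and its choroid plexus list summed to 224904 CPM.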

How the results depend on the processing

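Against neural tissue, all 9 annexins were higher under every alternative in both the tumor interior and the edge. Without the section as a block, 5 annexins and 4453 genes (6895 with the block) were called between tumor interior and neural tissue, 5 annexins and 3312 genes between edge and neural tissue, and 0 annexins between tumor interior and edge. With the sides of the edge summed, 2686 genes and 6 annexins were called between edge and neural tissue (5067 and 8 with the sides apart). That setting called 8 annexins between tumor interior and neural tissue, where 2486 of 19208 genes were called higher and 3049 lower. At the edge against neural tissue, 7 annexins were called without neighbor smoothing or without neural spots near left-out spots. These settings called 2352 of 19158 and 2390 of 19160 genes higher there, and the main fit 2297 of 19161. DESeq2 and the threshold halved each called 9 annexins there, where 3610 of 16756 and 2949 of 19120 genes were called higher. Between tumor interior and edge the single annexin call became 0 with RLE factors, an edge of 5 steps, the threshold halved, no neighbor smoothing, the sides summed or neural tissue beyond 10 steps, the last chosen after seeing the data, and 6 with the threshold doubled. Genes called there (723) became 2222 with DESeq2, 2491 with the threshold doubled, and 0 with the threshold halved, without smoothing or with the sides summed. Between the sides of the edge the annexins called were 6 with DESeq2, 3 with an edge of 5 steps and 1 when TMM was left out, and the genes called were 2002, 1028 and 442. *Anxa8* between tumor interior and edge reversed to -0.045 with the threshold halved. Scaling by library size, without TMM, moved the median over all genes between tumor interior and neural tissue from -0.10 to -0.46. With it, 9 of 9 annexins were still called there, and 7 between edge and neural tissue. Of the 19161 genes tested, 2226 and 1871 were called higher in these 2 comparisons. The share of calls that were higher moved from 50.2% to 28.6% (45.3% to 35.2% at the edge). Between tumor interior and edge that share was 8.02%, and 36.0% with DESeq2 or 40.2% with the threshold doubled. With 1 section left out, which leaves values without a test, no annexin changed direction except *Anxa3* between tumor interior and edge, and *Anxa1* between tumor interior and neural tissue ran from 5.45 to 5.56. Without TMM, an alternative chosen after seeing the data, *Anxa3* of section 1 turned between the sides of the edge (245 against 291 CPM). Correlations with the lists kept their sign in 259 of 306 cases in the tumor interior alone. In raw UMIs per spot the log2 ratio of *Anxa1* was 7.49 in place of 5.54. With the sides summed, the comparison between them has no value. Among single annexins, 562 values were counted as unchanged, 20 lost the call, 17 gained it, 12 moved and 1 reversed. Values with 1 section left out and values in raw UMIs per spot have no call. These counted as unchanged where they shifted by less than the standard deviation of the 2 sections. With 1 section left out, the value is that of the other section, and the fit lies near the middle of both. Such values therefore met the limit nearly always, and their count as unchanged does not measure stability. The cause of these changes was not tested. With 2 sections, a difference between the 2 tumors cannot be tested, and members of low count, such as *Anxa8* with few UMIs per neural spot, rest on sums over many spots.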
